A study of Oryza sativa with 6 samples.

Results

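The JAZ (jasmonate ZIM-domain) genes examined here are 10 rice genes of the TIFY family, picked by identifier out of the 91180 features in the deposited tables. They comprise TIFY9 (OS04G0395800), the TIFY10 genes TIFY10A (OS03G0402800), TIFY10B (OS07G0615200) and TIFY10C (OS09G0439200), the TIFY11 genes TIFY11A (OS03G0180800), TIFY11B (OS03G0181100), TIFY11C (OS03G0180900), TIFY11D (OS10G0392400) and TIFY11E (OS10G0391400), and OS08G0428400, which the member list gives as TIFY3. In rice identifiers of this kind the first digits are the chromosome, and for 9 of the 10 genes they match the chromosome that the RefSeq gene table (assembly ASM3414082v1) gives for the symbol. The exception is OS08G0428400, since that table places TIFY3 on chromosome 4 and names only TIFY6A among the TIFY genes of chromosome 8. This gene is therefore called by its identifier. The question was how the transcript levels of these genes differed between leaves of WT and OsRUS1-OX plants.

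JAZ proteins hold back jasmonate responses. At low hormone levels they bind transcription factors such as MYC2 and, through the adaptor NINJA, recruit co-repressors of the TOPLESS type. When the active hormone jasmonoyl-isoleucine accumulates, it brings JAZ proteins to the F-box receptor COI1, the JAZ proteins are degraded and the transcription factors are released. In leaves many JAZ genes are themselves induced by jasmonate and by wounding, so that new repressor is made while the response runs.

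RNA came from flag leaves of field-grown rice at heading, picked under sunlight at 11 h, with 3 libraries per genotype and 3 plants pooled in each library. WT was the cultivar ZH-11 (ZhongHua11), and OsRUS1-OX was a ZH-11 line that overexpresses OsRUS1 fused to GFP. OsRUS1-OX stands for a single transgenic line, and the promoter of the transgene is not given in the sources used here. WT leaves were expanded and OsRUS1-OX leaves were rolled at picking, so genotype and leaf state cannot be told apart, and nor can a change in RNA per cell from a change in the cells that make up the leaf.

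Between 8759812 and 13532579 reads were counted on genes per library. The gene that the study's tables annotate with vitamin B6 photo-protection, OS04G0290800, was read 57, 120 and 102 times in the WT libraries and 7313, 3515 and 7577 times in those of OsRUS1-OX. The 4 identifiers listed as green leaf markers all had reads and summed to between 28005 and 35440.2 CPM in WT and between 24588 and 24995 in OsRUS1-OX, with 1 of the 4 lower in OsRUS1-OX. CPM is the count scaled to a common library size, here with totals adjusted by the TMM method. Nearly all of the leaf marker sum was OS11G0707000, from 24365 CPM in OsRUS1-OX replicate 3 to 35026.5 in WT replicate 1. The 5 identifiers listed as flower markers summed to 16.4 to 25.5 CPM in WT and 22.6 to 30.9 in OsRUS1-OX, and the 2 root identifiers, of which 1 had no read in any library, to 22.7 to 41.3 and 42.4 to 45.3. Of the 2 flower identifiers that passed the filter on low counts, OS06G0712700 was higher in OsRUS1-OX (log2 fold change 0.88, edgeR adjusted p of 0.0096) and OS03G0215400 had a log2 fold change of -1.01 (edgeR adjusted p of 0.091). Over all tested features 23.6% were called in either direction, and the part of such cells in the results on JAZ genes was not tested. The names of these marker identifiers come from general knowledge and are not paired with them in the tables used here.

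Among the 10 JAZ genes, levels per length of gene ranged from single reads in a library to 84.3 FPKM as the mean of a genotype, as seen in the plot of levels by library. Levels are given as FPKM, the authors' counts divided by gene length and by the total of counted reads, on the usual kilobase scale. TIFY10B had the highest level in both genotypes, with a WT mean of 84.3 ± 15.5 FPKM (SD, n = 3 libraries) and an OsRUS1-OX mean of 50.9 ± 20.7 (SD, n = 3). TIFY10A followed with 42.5 ± 14.4 and 36.9 ± 7.57 FPKM, and OS08G0428400 with 22.9 ± 6.07 and 23.1 ± 1.58. These 3 genes together made up between 88.0% and 94.7% of the summed FPKM of the 10 genes in every library.

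**Figure D1:**
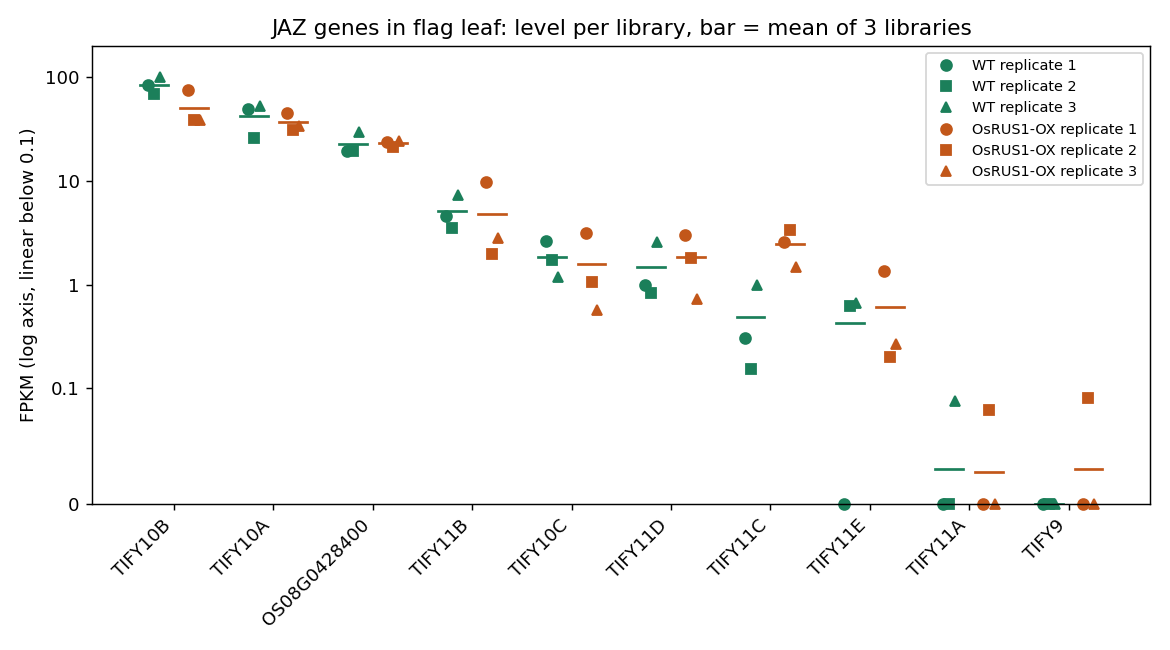
FPKM of the 10 JAZ genes in each of the 6 libraries (y axis, logarithmic above 0.1 and linear below), with WT in green, OsRUS1-OX in orange and a bar at the mean of 3 libraries. TIFY10B, TIFY10A and OS08G0428400 stand above the other genes, the libraries of TIFY11C do not overlap between genotypes, and TIFY11A and TIFY9 lie at or near 0.

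In WT the libraries of TIFY10B did not overlap with those of TIFY10A, while TIFY10A and OS08G0428400, the next in order, did overlap. In OsRUS1-OX the ranges of TIFY10B and TIFY10A overlapped, and those of TIFY10A and OS08G0428400 did not. Within each of the 6 libraries, TIFY10B was above TIFY10A and TIFY10A above OS08G0428400. TIFY11B came next in both genotypes, with 5.15 ± 1.92 FPKM (SD, n = 3 libraries) for WT and 4.83 ± 4.23 (SD, n = 3) for OsRUS1-OX. TIFY10C, TIFY11D, TIFY11C and TIFY11E had means between 0.430 and 2.45 FPKM, and genes next to each other in the order of their means overlapped within each genotype. By its mean TIFY11C was below TIFY10C in WT and above it in OsRUS1-OX, where the ranges of both genes overlapped and TIFY10C was the higher in replicate 1.

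Of the 10 genes, 7 passed edgeR's filter on low counts and were tested, with 19694 features tested in all. With edgeR's quasi-likelihood test and Benjamini-Hochberg adjustment over all tested features, 1 of the 7 passed an adjusted p of 0.05, against 23.6% of all tested features. The gene was TIFY11C, higher in OsRUS1-OX, and 11.8% of all features were called in that direction. TIFY11C passed the filter on low counts only through its OsRUS1-OX libraries, since WT replicates 1 and 2 held 3 and 2 reads. With the size of the log2 change also required to reach 1, TIFY11C was still called, as were 12.6% of all tested features. Its libraries alone among the 7 did not overlap between genotypes, against 42.4% of all tested features. Before adjustment, 2 of the 7 had a p under 0.05 by the edgeR test, TIFY11C and TIFY10B, against 36.4% of all. The median log2 fold change of the 7 genes was -0.14, and that of all tested features was -0.01. In absolute size the median was 0.27 for the 7 genes and 0.34 for all features.

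**Figure D2:**
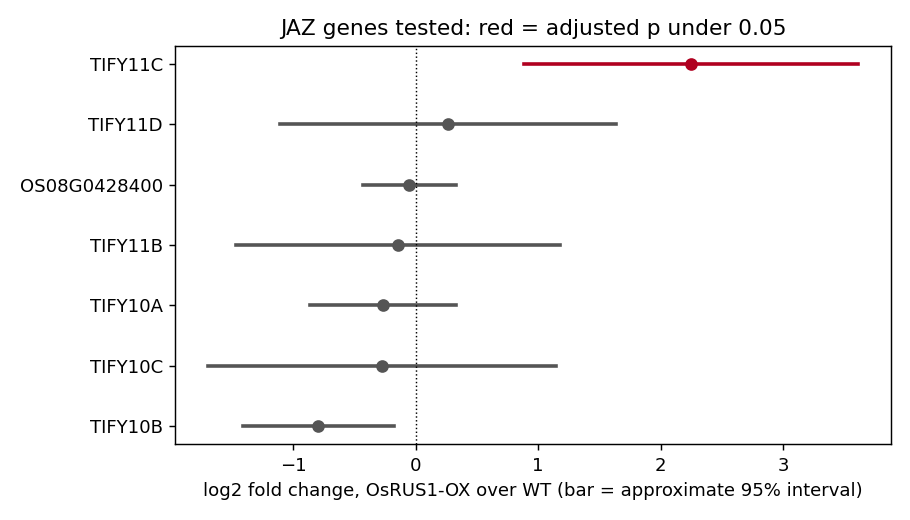
log2 fold change of OsRUS1-OX over WT (x axis) for the 7 JAZ genes tested, with approximate 95% intervals as bars and the gene past an adjusted p of 0.05 in red. TIFY11C lies at 2.24, the interval of TIFY10B runs from -1.41 to -0.18 without adjustment, and the intervals of the other 5 genes include 0.

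TIFY11C is a TIFY11 gene whose transcript was scarce in WT. WT libraries held 3, 2 and 12 reads and OsRUS1-OX libraries 38, 44 and 22, or 0.36, 0.18 and 1.08 CPM against 2.78, 3.65 and 1.57 CPM. Every OsRUS1-OX library lay above every WT library, and WT replicate 3 was the highest of WT. The log2 fold change was 2.24 (standard error 0.59, 95% interval 0.88 to 3.61, adjusted p = 0.029 by edgeR), a 4.74-fold higher level. The call rested on few reads and did not hold when any of 4 libraries was removed. Its log2 fold change and adjusted p from the edgeR test were 2.05 and 0.087 without WT replicate 1, 1.79 and 0.06 without WT replicate 2, 2.23 and 0.062 without OsRUS1-OX replicate 1, and 1.96 and 0.099 without OsRUS1-OX replicate 2. Without WT replicate 3 they were 3.30 and 0.014 by edgeR.

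TIFY10B, the most abundant of the 10 genes, had a lower mean in OsRUS1-OX but did not pass the threshold. Its levels were 116, 96.3 and 129 CPM in WT and 96.6, 50.7 and 49.9 CPM in OsRUS1-OX. The genotypes overlapped only because OsRUS1-OX replicate 1 lay just above the lowest WT library, while the other two OsRUS1-OX libraries were below all of WT. The log2 fold change was -0.79 (standard error 0.27, 95% interval -1.41 to -0.18). Its adjusted p in the edgeR test was 0.066. Without OsRUS1-OX replicate 1 the log2 fold change was -1.16 with an adjusted p of 0.0047 from the same edgeR test. With each of the other libraries left out in turn, TIFY10B did not pass the threshold. Its log2 fold change then ranged from -0.90 to -0.63 and its adjusted p from 0.065 to 0.21 by edgeR. With all 6 libraries the adjusted p was 0.027 by DESeq2 and 0.043 by edgeR without the filter on low counts. It was 0.039 by edgeR with the replicate number as a block. The other alternatives with all 6 libraries did not pass the threshold. Their adjusted p was 0.067 to 0.09 by edgeR with other scalings and 0.073 by edgeR with at least 10 counts in every library. By limma it was 0.08 on log2(FPKM + 1) and 0.081 on log2(FPKM + 0.1).

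The other TIFY10 genes showed smaller differences. TIFY10A had 64.2, 33.7 and 62.9 CPM in WT and 54.8, 38.1 and 40.4 CPM in OsRUS1-OX. All OsRUS1-OX libraries fell within the range of WT, and the log2 fold change was -0.27 (95% interval -0.86 to 0.33, adjusted p = 0.5 by edgeR). TIFY10C, known from rice studies of resistance to bacterial blight, was counted 27, 24 and 15 times in WT libraries and 49, 15 and 9 times in OsRUS1-OX libraries. Its OsRUS1-OX libraries lay on both sides of the WT range, and the 95% interval of its log2 fold change, -1.69 to 1.15, spans levels from 0.309 to 2.21 times that of WT.

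OS08G0428400 had the narrowest interval. It had 30.1, 30.3 and 43.2 CPM in WT and 34.4, 31.0 and 34.5 CPM in OsRUS1-OX, all within the WT range. The log2 fold change was -0.05, and its 95% interval of -0.43 to 0.33 spans levels from 0.742 to 1.25 times that of WT. The sign depended on the scaling, since the value was 0.01 with library totals in place of TMM factors and 0.04 with limma on either log2 FPKM scale.

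Among the TIFY11 genes, TIFY11A, TIFY11C and TIFY11B follow each other on chromosome 3 with 0 annotated genes between them in the RefSeq table, and TIFY11E and TIFY11D lie on chromosome 10 with 3 genes between them. Neighbours on chromosome 3 had unlike levels. TIFY11A, known from rice work on salt tolerance, had 1 read in WT and 1 in OsRUS1-OX, so no difference was detectable at this depth. TIFY11B, known in rice for larger grains when overexpressed, was counted 36, 37 and 70 times in WT libraries and 115, 21 and 34 times in OsRUS1-OX libraries. Its OsRUS1-OX replicate 1 was the highest of all libraries and replicates 2 and 3 were the lowest by CPM, and the log2 fold change was -0.14 (95% interval -1.46 to 1.18, adjusted p = 0.88 by edgeR). The setting of the counting for strand and overlapping genes is not given in the sources used here, so reads where neighbouring genes overlap could make their values uncertain. The paper states that its FPKM values came from uniquely mapped reads. Sequence shared between such related genes was not examined here.

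TIFY11D was counted 8, 9 and 26 times in WT libraries and 37, 20 and 9 times in OsRUS1-OX libraries, with a log2 fold change of 0.26 (95% interval -1.11 to 1.63). The highest library was OsRUS1-OX replicate 1 and the lowest OsRUS1-OX replicate 3, with all of WT between them. TIFY11E was counted 0, 6 and 6 times in WT libraries and 15, 2 and 3 times in OsRUS1-OX libraries and did not pass the filter on low counts. Most of its OsRUS1-OX reads were in replicate 1. TIFY9 had no read in WT and 1 read in OsRUS1-OX, under the limit of 3 counts that a count of 0 allows per library, which corresponds to between 0.215 and 0.361 CPM. This limit covers counting error only. Without the filter, the adjusted p from edgeR's test was 0.81 for TIFY11E, 0.94 for TIFY11A and 0.58 for TIFY9.

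The replicate libraries of a genotype differed more for these genes than for most features at their level, as the plot of spread by replicate shows. For each tested gene, the SD of log2 CPM within genotypes was set beside that of all features whose mean lay within 1.5-fold. For TIFY11B the SD was 0.87, larger than in 96.2% of 2648 such features, whose median was 0.34. For TIFY10B it was 0.41, larger than in 93.2% of 2229 features, and for TIFY10A 0.42, larger than in 92.9% of 3494. TIFY10C, TIFY11D and TIFY11C exceeded 94.9%, 91.6% and 87.6% of the features at their levels, while OS08G0428400, with an SD of 0.22, exceeded 64.4%. These shares describe 7 genes measured in the same libraries and carry no test.

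**Figure D3:**
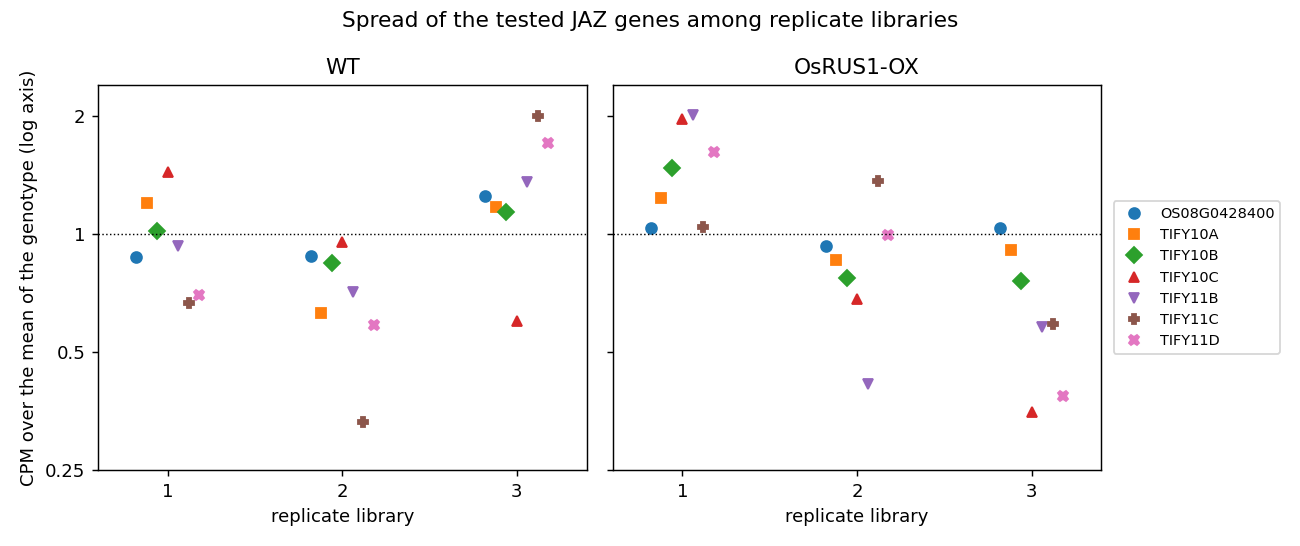
CPM of the 7 tested JAZ genes in each replicate library divided by the mean of the 3 libraries of its genotype (y axis, log scale), with WT in the left panel and OsRUS1-OX in the right panel. In OsRUS1-OX, replicate 1 is the highest library for 5 of the 7 genes, and in WT, replicate 3 is the highest for 5 of the 7.

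OsRUS1-OX replicate 1 was the highest of the OsRUS1-OX libraries for 5 of the 7 tested genes, compared with 37.4% of all tested features. Its CPM was 4.04 times the mean of the other two OsRUS1-OX libraries for TIFY11B, 3.80 times for TIFY10C, 2.35 times for TIFY11D and 1.92 times for TIFY10B. A ratio of at least 1.5 was found for these 4 genes and for 1300 tested features in all, or 6.60%. At the level of TIFY10B, 2.02% of features had such a ratio, while the share was 10.3% at the level of TIFY11B, 15.9% at that of TIFY10C and 18.8% at that of TIFY11D. The gene called between genotypes did not share this pattern, since TIFY11C had a ratio of 1.07 and its highest library was replicate 2. In WT, replicate 3 was the highest library for 5 of the 7 genes, compared with 29.0% of all tested features, and TIFY10C and TIFY10A were highest in replicate 1.

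Ratios between 2 genes of the same library do not depend on how the libraries are scaled. These 4 ratios were chosen after the values were seen. TIFY10B was 1.68, 2.67 and 1.92 times as high as TIFY10A by FPKM in WT and 1.64, 1.24 and 1.15 times in OsRUS1-OX, without overlap. Relative to OS08G0428400, TIFY10B was 4.31, 3.56 and 3.35 times as high in WT and 3.14, 1.83 and 1.62 times in OsRUS1-OX, again without overlap. In both ratios OsRUS1-OX replicate 1 was the nearest to WT. TIFY10A relative to OS08G0428400 overlapped between genotypes.

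TIFY11C relative to its neighbour TIFY11B was 0.0667, 0.0433 and 0.137 in WT against 0.265, 1.68 and 0.518 in OsRUS1-OX. All OsRUS1-OX libraries were above all WT libraries, and the mean of the log2 ratio differed by 3.06. The SD of the log2 ratio was 0.84 in WT and 1.35 in OsRUS1-OX (n = 3 libraries each). Since the ratios were picked for their values, they are a description and carry no test.

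**Figure D4:**
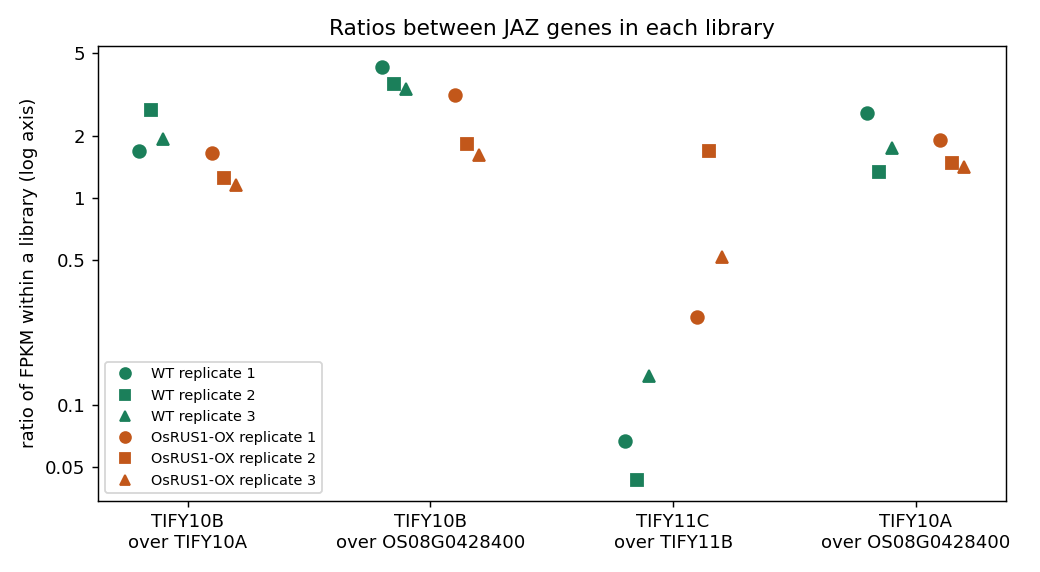
FPKM of one JAZ gene over that of another within each library (y axis, log scale), with WT in green and OsRUS1-OX in orange and the replicate given by the shape of the point. TIFY10B relative to TIFY10A and to OS08G0428400 is lower in every OsRUS1-OX library than in any WT library, and TIFY11C relative to TIFY11B is higher, from 0.0433 at the lowest in WT to 1.68 at the highest in OsRUS1-OX.

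The summed FPKM of the 10 genes was 161, 122 and 195 for the WT libraries and 164, 99.9 and 103 for those of OsRUS1-OX. The genotypes overlapped, since OsRUS1-OX replicate 1 lay between the WT libraries. TIFY10B made up 51.9%, 57.0% and 51.4% of this sum in WT and 45.6%, 38.9% and 37.9% in OsRUS1-OX, lower in every OsRUS1-OX library. The 5 TIFY11 genes together made up 4.63% ± 1.19 (SD, n = 3 libraries) of the WT sum and 7.57% ± 2.51 (SD, n = 3) of the OsRUS1-OX sum, with overlap.

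For the rest of the pathway, 16 further identifiers had been listed for the jasmonate receptor, its downstream bHLH factors, the enzymes that join jasmonate to isoleucine, the synthesis steps after lipoxygenase, and other TIFY genes. The pairing of these identifiers with names comes from general knowledge and is not in the tables used here, so no role is given to any of them. Of the 11 that passed the filter on low counts, 1 was higher and 2 were lower in OsRUS1-OX, compared with 23.6% of all features called in either direction. OS05G0449500 rose from 127, 129 and 114 CPM in WT to 162, 195 and 193 in OsRUS1-OX, a log2 difference of 0.57 ± 0.12 (standard error; edgeR adjusted p of 0.015). OS05G0586200 fell from 133, 105 and 127 CPM to 96.3, 77.7 and 80.7, a log2 difference of -0.52 ± 0.14 (standard error; edgeR adjusted p of 0.032). OS03G0684000 fell from 47.5, 56.2 and 50.5 CPM to 41.6, 33.9 and 39.7, with a log2 difference of -0.42 ± 0.13 (standard error; edgeR adjusted p of 0.047). The genotypes did not overlap for any of the 3, which were named because they were called. Of all tested features, 42.4% did not overlap. Without OsRUS1-OX replicate 2 or without OsRUS1-OX replicate 3 the number called was 0, and without WT replicate 1 it was 1. Calls over all features fell in these fits as well, from 4644 of 19694 with all 6 libraries. They numbered 2524 of 20165 without OsRUS1-OX replicate 2, 2399 of 20132 without OsRUS1-OX replicate 3 and 3466 of 20149 without WT replicate 1.

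A list of genes annotated with jasmonate metabolism is also among the study's tables, drawn from genes found different in these same libraries. The list is thus not independent evidence of a difference or of its direction, and this holds for the adjusted p-values below. Of its 5 genes, 1 was higher and 4 were lower in OsRUS1-OX in edgeR's test. OS02G0194700, annotated as a lipoxygenase, a kind of enzyme that acts early in jasmonate synthesis, rose from 274, 529 and 27 reads to 37881, 32892 and 25648 (log2 fold change 6.47, edgeR adjusted p of 0.0026). The summed CPM of the 5 genes was between 466 and 587 in WT and between 2032 and 3023 in OsRUS1-OX. Most of the OsRUS1-OX sum was OS02G0194700 alone, at 2775, 2728 and 1835 CPM against 33.0, 47.4 and 2.44 CPM in WT. The rise of the sum thus came from this gene, as the other 4 were lower. In the other direction, OS08G0508800, annotated as nearly identical to lipoxygenase 7, was counted 280, 183 and 242 times in WT libraries and 51, 35 and 66 times in OsRUS1-OX libraries. Neither lipoxygenase overlapped between genotypes, and nor did 42.4% of all tested features. That share is of features not selected for a difference, while both lipoxygenases were. The log2 fold change of OS08G0508800 was -2.65 ± 0.31 (standard error), with an edgeR adjusted p of 0.0013. OS08G0509100, of the same list, fell further, with a log2 fold change of -3.52 (edgeR adjusted p of 5e-04).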

How the data were processed

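Flag leaf RNA of WT and OsRUS1-OX was measured in 6 libraries. The authors filtered the paired-end reads, aligned them with TopHat2 (2.0.12) to the Ensembl Plants rice genome and counted reads per gene with HTSeq (0.6.1). Count values were deposited as raw integers. FPKM, as deposited, follows from those counts, gene length and the sum of counted reads, a relation checked on the values. Columns were assigned to libraries through the sample titles, and 0 columns were left unused.

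The test across genes was that of edgeR 4.0.16, run in R 4.3.3 (TMM factors, default filter by genotype, quasi-likelihood test, Benjamini-Hochberg over all tested features, call at an adjusted p under 0.05). Standard errors and 95% intervals were derived from the fold change and the F statistic and are approximate. Alternatives were DESeq2 1.42.0, limma 3.58.1 with the deposited FPKM on a log2 scale after adding 1 or 0.1, other scalings and filters, a log2 fold change of at least 1, the replicate number as a block, and fits without each library. The scripts were tested on simulated data. All 10 JAZ genes are named, and of the tested pathway identifiers only the called ones are. Outside this rule, the untested OS04G0301500 and OS03G0225900 are named for their read counts. Lists of NINJA, TOPLESS-type and jasmonate-oxidizing genes could not be built from the gene table. Genes and lists were chosen with earlier results of these data known. At the depth reached, 3 counts were at most 0.361 CPM. No sequences or coordinates are given, since no genome of the authors' build was used here.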

Additional observations from a re-analysis of the deposited data

How the results depend on the processing

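TIFY11C stayed higher in OsRUS1-OX in all 14 alternatives that tested it, with log2 fold changes from 1.22 to 3.30 and adjusted p-values from 0.0062 to 0.099, and TIFY10B stayed lower in all 15, with adjusted p-values from 0.0047 to 0.21. The JAZ genes called were TIFY10B and TIFY11C both with DESeq2 (2 of 8 tested) and without the filter on low counts (2 of 10). Over all features, 5164 of 23412 were called with DESeq2 and 4872 of 31752 without the filter. With at least 10 counts in every library, where TIFY11C is removed by construction, 0 of 4 JAZ genes and 3857 of 17355 features were called. The number of JAZ genes called was between 0 and 1 when a library was left out. The sign of OS08G0428400 turned, to 0.0095 with library totals, 0.036 with limma on log2(FPKM + 1) and 0.039 on log2(FPKM + 0.1). With a library left out, its log2 fold change ranged from -0.14 to 0.14, that of TIFY10C from -1.22 to 0.13, that of TIFY11B from -1.13 to 0.22 and that of TIFY11D from -0.27 to 0.92. All features called ranged from 2399 to 5219 in the fits without a library and numbered 2477 of 19694 with a log2 fold change of at least 1. The called pathway identifiers numbered 5 of 13 with DESeq2, and 1 of 11 with library totals and with limma on either FPKM scale. They numbered 0 of 11 with a log2 fold change of at least 1, and 0 to 3 without a library. Of 19694 features, 4557 were called with library totals, 4412 with limma on log2(FPKM + 1) and 4326 on log2(FPKM + 0.1). Without TIFY10B the summed FPKM averaged 74.9 in place of 159 in WT and 71.3 in place of 122 in OsRUS1-OX.

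The replicate numbers share no stated origin between genotypes. Deviations of same-numbered libraries correlated at 0.13, -0.09 and 0.11, so the numbers were not taken to pair them. With the replicate block, TIFY10B passed the threshold (log2 fold change -0.85, adjusted p = 0.039 from edgeR) and TIFY11C did not (2.25, adjusted p = 0.065), 1 JAZ gene, 2 pathway identifiers and 4013 features being called. Of the 10 JAZ genes, 3 had too few reads for a test, and the fold changes of TIFY10C, TIFY11B, TIFY11C and TIFY11D rest on at most 115 reads in any library.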

Other observations

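One of the listed jasmonate pathway identifiers that had too few reads for the test, OS04G0301500, held 0, 1 and 1 reads in the WT libraries and 51, 3 and 3 in those of OsRUS1-OX, so that nearly all of its reads came from OsRUS1-OX replicate 1. Among the OsRUS1-OX libraries, TIFY10A, TIFY10B, TIFY10C, TIFY11B and TIFY11D were also highest in this library, as were 37.4% of all tested features. Another listed identifier with too few reads, OS03G0225900, was counted 9, 8 and 69 times in WT libraries and 7, 3 and 8 times in OsRUS1-OX libraries. OS04G0301500 and OS03G0225900 were singled out after their values were seen, and no test was made of them.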
